A study of Homo sapiens with 3 samples.

Results

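The genes described here are 65 developmental homeobox and paired box genes, all those of the PAX, LHX, ISL, DLX, MSX, EMX, OTX, GSX, EVX, EN, IRX, NKX, MEIS and PBX families and of the SIX-family whose symbol stood alone on a probe set analysed here. They were chosen by family name from 18414 measured genes. They fall into 15 families of 2 to 12 genes, and each had 1 probe set. Their transcripts were measured in C33A cells, an established human cervical carcinoma line, on 3 Affymetrix Human Gene 1.0 ST arrays, each hybridized with total RNA of a separate culture growing exponentially without treatment. All arrays belong to a single group, so levels are given for each array with the mean and SD and no test between conditions was possible.

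Homeobox genes encode transcription factors that bind DNA through the homeodomain, a small helical fold that recognises short AT-rich sites. In the embryo they give cells their position and their identity, and most are used in only a few tissues at a time. PAX proteins carry a paired domain, alone or with a homeodomain. LHX and ISL proteins join a homeodomain to LIM domains, which hold the adaptor LDB1. SIX-family proteins bind the EYA coactivators through a domain next to the homeodomain. PBX, MEIS and IRX proteins belong to the TALE class, with a loop of extra residues in the homeodomain, and PBX and MEIS proteins bind DNA together with HOX proteins. The DLX, MSX, EMX, EN, EVX, GSX and NKX families belong to the ANTP class, and OTX proteins act in the formation of the head.

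Levels are log2 intensities normalized by the authors, so that a difference of 1 is a 2-fold difference in signal. The values come with no detection call. Background was therefore read from 459 genes that most tissues leave unused, the olfactory receptors, taste receptors, keratin-associated proteins and beta-defensins, whose median was 4.05. The 95th percentile of these genes, 6.42, served as the bound. Signal also depends on the sequence of each probe set, so the order of different genes is approximate, and precision is limited by the number of arrays. Between arrays, r over all probe sets was 0.993 to 0.994. Of 9 epithelial markers, 2 lay above the bound, KRT18 at 7.75 and KRT14 at 6.86, whereas the adhesion molecules CDH1 and EPCAM, which define epithelia, averaged 4.95 and 4.52. For fibroblasts 2 of 6 markers were above the bound, COL3A1 at 11.36 and COL1A1 at 7.24, while DCN and LUM averaged 3.10 and 2.52. For leukocytes 2 of 5 were, PTPRC at 8.82 and CD68 at 6.90, while CD3E and LYZ averaged 4.59 and 3.59. For neural cells 1 of 4 was above it, and for endothelium 0 of 5. The part of these transcripts in the levels below was not tested, and in such bulk RNA fewer cells with a transcript cannot be told apart from less transcript per cell.

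Most of these genes gave signals of middling strength. Of the 65 genes, 38 (58.5%) averaged above the bound, against 56.4% of all genes measured. They were above it on all arrays in 35 cases (53.8%), against 54.9% of all genes, and below it on all arrays in 25. Few were abundant. When all genes were ranked by mean level and divided into 10 equal groups (deciles, the 10th the highest), deciles 8 to 10 held only 5 of the 65 genes (7.69%), against 30.0% of all genes by construction. Deciles 4 to 7, with means between 5.52 and 8.36, held 49 (75.4%, against 40.0%), and deciles 1 to 3 held 11 (16.9%, against 30.0%). None of the 65 reached decile 10. Their median was 6.62, with the middle 50% between 5.99 and 7.42. The median of the 18349 other genes was 6.91, with a wider middle 50%, between 5.17 and 8.69. On arrays 1, 2 and 3 the median of the 65 genes was 6.64, 6.51 and 6.65, against 6.92, 6.92 and 6.91 for the other genes. Both the share above the bound and the median thus lay close to those of all genes, and the difference was in how few members stood at either end.

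**Figure D1:**
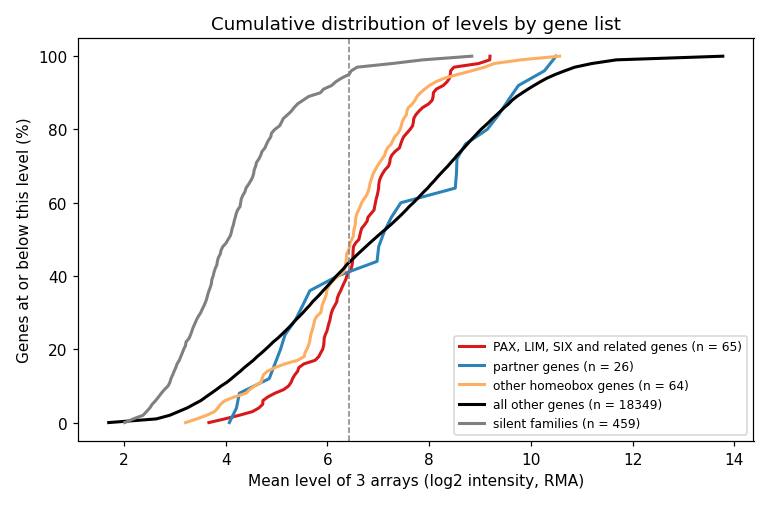
Cumulative distribution of the mean log2 level over 3 arrays for the 65 homeobox and paired box genes (PAX, LIM and related genes in the legend), partner genes, other homeobox genes, all other genes and the silent families, with the bound as a dashed line. The curve of the 65 genes is steeper than that of the other genes, crosses it below the middle and ends at 9.20, while the other genes reach 13.77.

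The bound itself set how many genes counted as above it. At the 99th percentile of the silent families, 7.88, 9 members remained above (13.8%), against 37.2% of all genes. These were LHX2, SIX4, SIX3, PBX3, NKX2-5, DLX2, SIX5, NKX2-4 and SIX2, of which 4 are SIX-family genes. Against the olfactory receptors alone, whose 95th percentile was 5.37, 56 members (86.2%) lay above, against 72.2% of all genes. The silent families were themselves unlike. None of 341 olfactory receptors lay above 6.42, whereas 22 of 67 keratin-associated protein genes did.

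LHX2 and SIX4 were the most abundant members. LHX2, a LIM homeodomain factor needed for forebrain, eye and hair follicle, gave 9.16, 9.18 and 9.24 on the 3 arrays (9.20 ± 0.04, SD, n = 3). SIX4, which acts in muscle precursors, gave 9.18, 9.20 and 9.18 (9.19 ± 0.01, SD, n = 3). Their difference was 0.01, with SIX4 higher on 2 arrays and LHX2 on 1, so the order of the pair was not settled. LHX2 exceeded 82.4% and SIX4 82.3% of all genes, and both lay at least 0.71 above SIX3, the next member by mean, on every array. At the other end stood MEIS1 and MSX2. MEIS1, a TALE factor that binds DNA with HOX proteins and is used in blood stem cells, gave 3.75, 3.70 and 3.55 (3.67 ± 0.10, SD, n = 3). MSX2, a factor of skull and limb formation, gave 4.11, 4.23 and 4.13 (4.16 ± 0.06, SD, n = 3). Both were within the range of the silent families, MEIS1 below their median and MSX2 slightly above it. The promoter sequences of these 4 genes are shown because the genes mark both ends of the range. Each is the 250 bases before the RefSeq start on GRCh38.p14, read 5′ to 3′ on the strand of the gene, with CpG dinucleotides in capitals.
LHX2: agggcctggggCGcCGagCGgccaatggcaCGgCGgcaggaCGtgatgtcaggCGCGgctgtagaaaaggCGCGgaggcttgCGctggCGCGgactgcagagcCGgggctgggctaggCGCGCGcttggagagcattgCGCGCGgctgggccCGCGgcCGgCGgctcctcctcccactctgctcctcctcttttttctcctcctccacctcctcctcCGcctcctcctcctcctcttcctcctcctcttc
SIX4: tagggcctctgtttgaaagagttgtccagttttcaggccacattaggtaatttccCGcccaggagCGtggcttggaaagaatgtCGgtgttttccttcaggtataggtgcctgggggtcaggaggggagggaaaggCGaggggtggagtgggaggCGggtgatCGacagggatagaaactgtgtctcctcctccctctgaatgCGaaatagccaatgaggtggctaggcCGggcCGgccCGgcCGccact
MSX2: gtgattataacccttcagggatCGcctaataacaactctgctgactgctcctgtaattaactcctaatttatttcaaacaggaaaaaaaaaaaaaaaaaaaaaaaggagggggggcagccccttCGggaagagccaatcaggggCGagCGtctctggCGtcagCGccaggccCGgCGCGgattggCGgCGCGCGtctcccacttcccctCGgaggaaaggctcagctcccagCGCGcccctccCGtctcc
MEIS1: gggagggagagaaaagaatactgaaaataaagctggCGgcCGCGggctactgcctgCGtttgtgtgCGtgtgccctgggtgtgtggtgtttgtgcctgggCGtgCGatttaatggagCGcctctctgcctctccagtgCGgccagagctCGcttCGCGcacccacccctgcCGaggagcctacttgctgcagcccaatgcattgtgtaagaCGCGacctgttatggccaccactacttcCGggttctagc

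The LHX2 sequence lies on the plus strand at chr9:124011518-124011767 and holds 25 CpG, with 70.4% G and C. The SIX4 sequence lies on the minus strand at chr14:60724352-60724601 and holds 11 CpG (58.0% G and C). The MSX2 sequence, on the plus strand at chr5:174724332-174724581, holds 17 (55.6%), and the MEIS1 sequence, on the plus strand at chr2:66434875-66435124, holds 16 (59.6%). SIX4, with one of the strongest signals, thus had fewer CpG than either of the weakest genes.

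Among the PAX genes, 3 of 9 were above the bound and the family median was 6.05. PAX9, a factor of tooth, palate and thymus formation, was the highest, with 6.89, 6.97 and 7.02 (6.96 ± 0.06, SD, n = 3). PAX8, used in thyroid and kidney, gave 6.36, 6.51 and 6.65 (6.50 ± 0.14, SD, n = 3) and so lay below the bound on 1 array and above it on the other 2. PAX5, the B cell factor, gave 6.46, 6.54 and 6.51, only 0.08 above the bound on average. PAX9 alone cleared the bound by several times the spread of its arrays, while the arrays of PAX8 differed by up to 0.29. PAX2, PAX4 and PAX7 averaged 6.18, 6.05 and 5.99. PAX6, required for the eye, gave 4.83, 4.95 and 5.02, PAX1 averaged 5.21, and PAX3, a factor of neural crest and muscle, was the lowest of the family with 4.64, 4.73 and 4.82. The antisense gene PAX8-AS1, which has its own probe set, averaged 3.77.

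The LIM homeodomain genes covered almost the whole range. Of the 8 LHX genes, 4 were above the bound, with a median of 6.51. After LHX2 came LHX3, a pituitary and motor neuron factor, with 7.06, 6.91 and 7.06, and LHX9, a factor of the gonad, with 6.93, 7.00 and 7.04. LHX1 averaged 6.62, LHX5 6.40 and LHX6 6.31, and LHX5 was above the bound on array 1 only. LHX4, the closest relative of LHX3, was far lower at 5.19, 5.49 and 5.57. LHX8 was the lowest, with 4.72, 4.66 and 4.80. The family thus held 1 of the 2 strongest members and 1 of the 5 weakest. Both ISL genes were above the bound. ISL1, a factor of motor neurons and heart progenitors, gave 7.72, 7.80 and 7.74 (7.75 ± 0.04, SD, n = 3), and ISL2 gave 7.49, 7.49 and 7.53 (7.50 ± 0.02, SD, n = 3), with no overlap between them.

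All 5 SIX-family genes analysed lay above the bound on every array, and their median, 8.09, was the highest of the 15 families. SIX3, a forebrain and eye factor, gave 8.36, 8.45 and 8.47 (8.42 ± 0.06, SD, n = 3). SIX5 gave 8.07, 8.18 and 8.01, and SIX2, which maintains kidney progenitors, gave 8.17, 7.90 and 8.08. The ranges of SIX5 and SIX2 overlapped. SIX6, the close relative of SIX3, was the lowest with 6.69, 6.74 and 6.90.

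Of the TALE genes, PBX3 was the highest, with 8.33, 8.53 and 8.40 (8.42 ± 0.10, SD, n = 3), and PBX4 gave 6.97, 6.74 and 7.09. The 3 MEIS genes stood far apart, with MEIS3 at 7.39, 7.41 and 7.45 and MEIS2 at 5.86, 5.87 and 5.84, both well above MEIS1. The SD of MEIS2, 0.01, was the smallest of all members. Of the 6 IRX genes, patterning factors of the neural plate and heart, 4 were above the bound. IRX5 was the highest at 7.45, followed by IRX2 at 7.05, IRX3 at 7.01 and IRX1 at 6.52, while IRX6 (6.36) was above it on 1 array and IRX4 (6.02) on none. The divergent transcript IRX2-DT averaged 6.57, just above the bound, and PBX3-DT averaged 4.40.

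**Figure D2:**
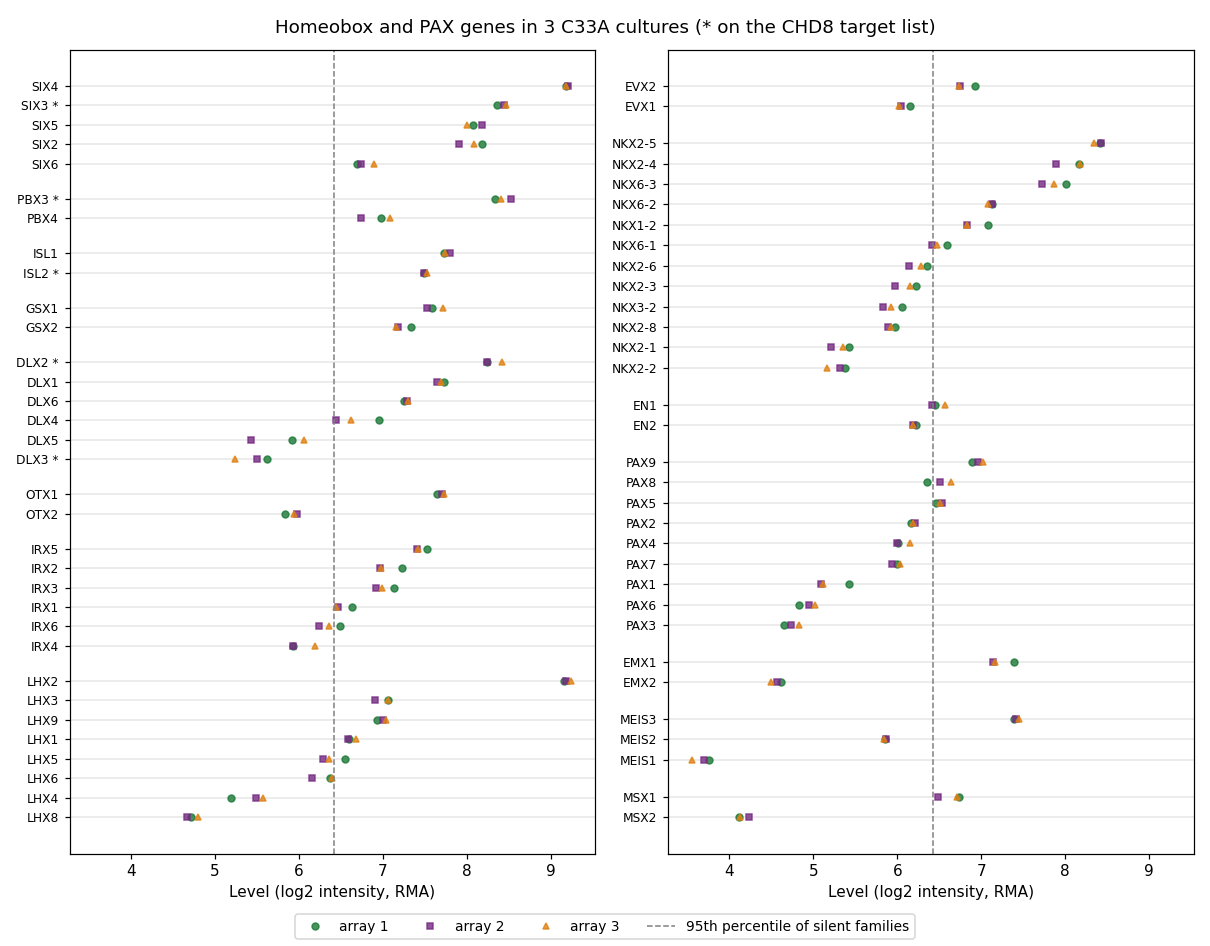
Log2 level of each of the 65 genes on arrays 1, 2 and 3 (points), grouped by family, with the bound of 6.42 as a dashed line and genes on the CHD8 list marked with an asterisk. All SIX-family, PBX, ISL and GSX genes average above the bound, and the 3 arrays of a gene mostly lie closer together than the genes of a family.

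The 6 DLX genes, used in forebrain interneurons and in the jaws, split into 4 above the bound and 2 below. DLX2 gave 8.25, 8.25 and 8.42 (8.30 ± 0.10, SD, n = 3), DLX1 averaged 7.69 and DLX6 7.28. DLX4 gave 6.96, 6.44 and 6.63. DLX5, a bone and craniofacial factor, gave 5.91, 5.42 and 6.07 (5.80 ± 0.33, SD, n = 3), and DLX3, a factor of hair, tooth and placenta, gave 5.62, 5.50 and 5.24 (5.45 ± 0.20, SD, n = 3). The ranges of DLX5 and DLX3 overlapped.

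The NKX family was the largest, and 6 of its 12 genes were above the bound (median 6.38). NKX2-5, the cardiac factor, was the highest with 8.42, 8.43 and 8.34 (8.40 ± 0.05, SD, n = 3), followed by NKX2-4 with 8.16, 7.90 and 8.18 and NKX6-3, which averaged 7.87. NKX6-2 (7.12) and NKX1-2 (6.91) were also above it on every array, and NKX6-1, a factor of pancreatic beta cells, on 2 of the 3 (6.49). NKX2-6, NKX2-3, NKX3-2 and NKX2-8 averaged 6.26, 6.11, 5.94 and 5.93. NKX2-1, the thyroid and lung factor, gave 5.43, 5.21 and 5.35, while its antisense gene NKX2-1-AS1 averaged 6.37. NKX2-2, a factor of pancreas and ventral spinal cord, was the lowest with 5.37, 5.32 and 5.17.

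The remaining families have 2 genes each. GSX1 (7.61) and GSX2 (7.22), factors of the ventral forebrain, were both above the bound. In each of the other pairs the first was above it and the second below, namely OTX1 (7.69) and OTX2 (5.92), EMX1 (7.23) and EMX2 (4.56), EVX2 (6.80) and EVX1 (6.07), MSX1 (6.64) and MSX2, and EN1 (6.48) and EN2 (6.20). The gap was largest in the cortical factors EMX1 and EMX2. It was smallest in EN1 and EN2, factors of the midbrain and hindbrain border, and EN1 was above the bound on 2 arrays of 3.

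In the order of all 65 genes most neighbours had signals within the spread of their arrays. Of 64 adjacent pairs, 54 had overlapping ranges over the arrays and 10 did not. The order was made from these same means, so neighbours are close by construction. The comparison is one of signals and does not cover differences between probe sets. The gap of 0.76 between SIX4 and SIX3 was the largest between neighbours, followed by 0.49 between MSX2 and MEIS1, 0.40 between EMX2 and MSX2, 0.35 between DLX5 and DLX3, whose ranges overlapped, and 0.27 between PAX1 and PAX6. Arrays of PAX8, EN1, NKX6-1, LHX5 and IRX6, 5 genes in all, lay on both sides of the bound (7.69% of members, against 3.14% of all genes and 10.5% of the 5524 genes in deciles 4 to 6, where most members lay).

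The spread over the arrays was small and like that of other genes. The median SD was 0.09 for the 65 genes and 0.08 for the other genes. An SD below 0.1 was found for 37 of the 65 and, since their median lies below 0.1, for most of the other genes too. Without array 1 the median SD of the 65 genes, then over 2 arrays, was 0.06. Since the SD of array values falls with level, each SD was also divided by the median SD of all genes in the same decile, and the median of this ratio was 0.91. DLX genes had 3 of the 5 largest SDs, namely DLX5 at 0.33, DLX4 at 0.26 and DLX3 at 0.20, and the other 2 were those of LHX4 at 0.20 and PAX1 at 0.19. DLX5 varied the most, and its SD was 3.08 times the median of its decile.

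**Figure D3:**
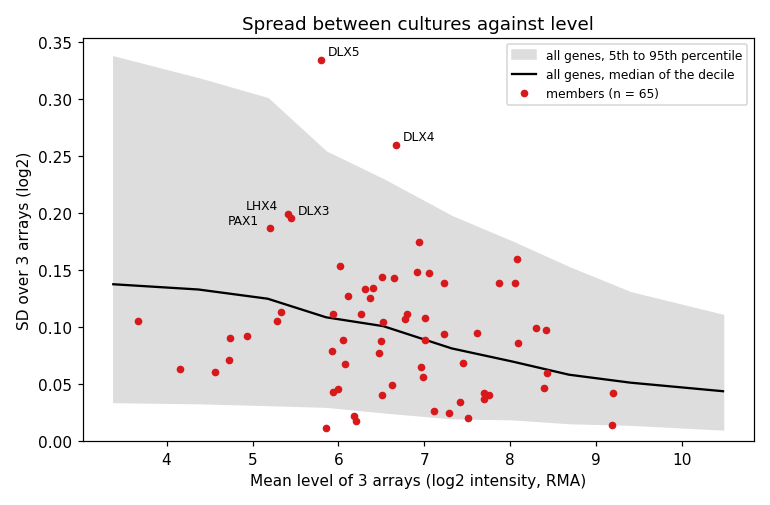
SD over 3 arrays against mean log2 level for the 65 genes (points), with the median SD of all genes in each decile and the range from the 5th to the 95th percentile. DLX5, at an SD of 0.33, and DLX4, at 0.26, stand above that range, and the median SD of all genes falls from 0.14 in decile 1 to 0.04 in decile 10.

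Array 2 gave the lowest value more often than the other arrays, though not for most members. It was the lowest of the 3 arrays for 30 members (46.2%), against 35.8% of all genes and 39.0% of the genes in deciles 4 to 6. It was the highest for 10 members (15.4%), against 32.5% of all genes and 30.3% of those in deciles 4 to 6. Array 2 was the lowest for 8 of 12 NKX genes, 5 of 6 IRX genes and 5 of 8 LHX genes, but for 3 of 9 PAX genes. How often array 1 was the highest was not compared with all genes, so it is not read as a trait of the members. Deviations of the arrays were small. For the members the median deviation from the gene mean was 0.02, -0.04 and 0.01 on arrays 1, 2 and 3. It was 0.02, -0.01 and -0.01 for the genes in deciles 4 to 6 and within 0.01 of 0 for all genes. The source of these deviations was not tested.

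**Figure D4:**
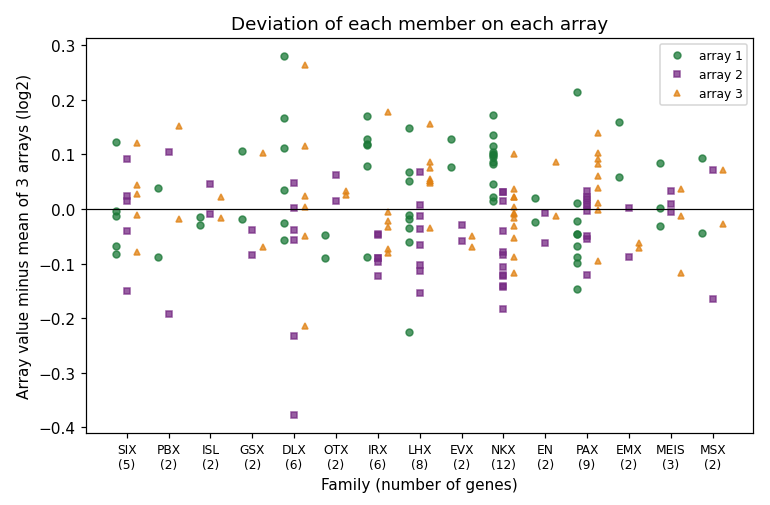
Deviation of each of the 65 genes on arrays 1, 2 and 3 from its own mean over the arrays (log2 units), by family. The points of array 2 lie mostly below 0, with a median of -0.04.

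The study that made these arrays mapped the chromatin remodeler CHD8 on promoters in the same cells and listed the genes bound. Of all genes measured, 9.63% are on that list, and of the 65 members 5 are (7.69%), namely DLX2, DLX3, ISL2, PBX3 and SIX3. Of these 4 averaged above the bound and DLX3 did not, against 93.9% of all 1773 listed genes measured. Of the 60 members off the list 34 were above it, near the share of all genes, listed or not, which was 56.4%. With 5 listed genes the shares are coarse, and the list itself was drawn up in C33A cells. LHX2 and SIX4 are not on the list. For the listed genes with a RefSeq promoter the 250 bases before the start are shown as the sequence of promoters on the list, written as above.
DLX2: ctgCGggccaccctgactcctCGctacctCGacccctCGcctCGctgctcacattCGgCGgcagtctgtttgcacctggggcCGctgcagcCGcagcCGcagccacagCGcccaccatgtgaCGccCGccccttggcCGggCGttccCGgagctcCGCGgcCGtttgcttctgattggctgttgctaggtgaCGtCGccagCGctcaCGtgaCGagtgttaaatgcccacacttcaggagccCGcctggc
ISL2: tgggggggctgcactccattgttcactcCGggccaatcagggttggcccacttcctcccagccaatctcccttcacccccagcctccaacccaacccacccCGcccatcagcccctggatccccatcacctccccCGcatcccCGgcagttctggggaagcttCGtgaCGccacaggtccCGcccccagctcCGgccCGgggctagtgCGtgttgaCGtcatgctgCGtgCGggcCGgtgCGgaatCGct
PBX3: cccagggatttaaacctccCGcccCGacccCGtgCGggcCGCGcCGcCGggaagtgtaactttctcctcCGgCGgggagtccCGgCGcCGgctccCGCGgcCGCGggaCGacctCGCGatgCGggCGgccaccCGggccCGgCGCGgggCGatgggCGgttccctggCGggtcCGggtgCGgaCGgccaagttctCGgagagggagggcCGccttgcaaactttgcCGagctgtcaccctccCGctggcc

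The DLX2 sequence (chr2:172102901-172103150, minus strand) holds 25 CpG and the ISL2 sequence (chr15:76336523-76336772, plus strand) 16, both with 68.0% G and C. The PBX3 sequence (chr9:125747933-125748182, plus strand) holds 36 and is the richest of the 7 shown, with 75.6% G and C.

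RefSeq promoters were matched for 48 of the 65 members, 14 of them with several starts, which were averaged per gene. The median was 18.5 CpG in 250 bases and 63.9% G and C for the members, against 17.7 CpG and 62.4% for 14192 other genes. The 27 members above the bound had a median of 24 CpG and the 21 not above it 16, whereas other genes had 21.0 and 7.5. Promoters of the silent families had a median of 1.0 CpG. Members not above the bound had promoters far richer in CpG than those of the silent families. Across the 48 members, Spearman's rho between level and CpG was 0.24, and across the other genes it was 0.50. Within the members above the bound rho was 0.01, and within those not above it -0.03. For other genes these values were 0.12 and 0.35. The members cover a narrower range of levels than the other genes, and the part of this in rho was not tested. These are descriptions over genes of the same 3 arrays, and the part of base composition in the probe signal was not tested. EN2, with 45.0 CpG the richest promoter of the members, averaged only 6.20, and PAX4, with 0.5, averaged 6.05.

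**Figure D5:**
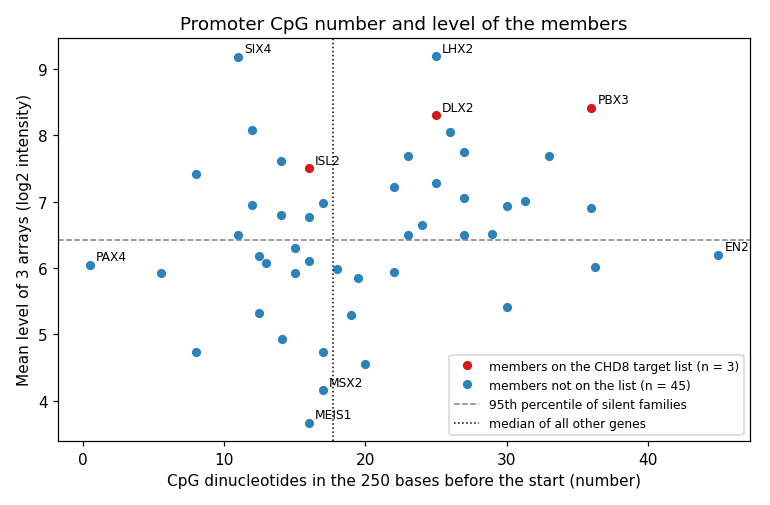
Mean log2 level over 3 arrays against the number of CpG dinucleotides in the 250 bases before the start for 48 members (red, on the CHD8 list, n = 3; blue, not on it, n = 45), with the bound dashed and the median of the other genes, 17.7, dotted. LHX2 and SIX4 have nearly equal levels at 25 and 11 CpG.

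Short motifs were searched on both strands of the 72 member windows and of 35116 windows of all genes. The E2F letters TTTCCCGC or TTTGGCGC were in 2.78% of member windows, those of LHX3 and SIX4, and in 1.93% of all. The homeodomain core TAATTA was in 4.17%, at EMX2, MSX2 and NKX2-1, and in 4.35% of all windows, and TATAAA was in 8.33% against 10.7%. CCAAT was in 47.2% of member windows, from 32 genes, and in 32.0% of all windows. A match describes the letters only.

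Several members lie beside each other in the genome, in 13 pairs within 1000000 bases in the RefSeq gene table. Within these pairs the difference in level was smallest for NKX2-2 and PAX1 on chromosome 20, at 0.08, and largest for NKX2-4 and NKX2-2 on the same chromosome, at 2.79. SIX6 (6.78) and SIX4 (9.19) on chromosome 14 differed by 2.41, whereas SIX3 and SIX2 on chromosome 2 differed by 0.37. The linked DLX genes differed by 1.48 for DLX6 and DLX5 and by 1.22 for DLX4 and DLX3. DLX1 and DLX2, both above the bound, differed by 0.615. In the IRX clusters, IRX5 and IRX6 differed by 1.09 and IRX4 and IRX2 by 1.04. IRX2 and IRX1 differed by 0.54 and IRX3 and IRX5 by 0.44.

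Transcripts of 26 genes whose proteins work with these factors were also measured. Of these 26 genes 15 were above the bound (median 7.06), near the share of all genes, 56.4%. For LIM homeodomain factors 5 of 9 were. LDB1, the adaptor of LIM domains, gave 10.22, 10.35 and 10.23 (10.27 ± 0.07, SD, n = 3), and SSBP3 and SSBP2, which stabilise it, averaged 9.37 and 9.14 and are both on the CHD8 list. LMO3, a LIM-only competitor for LDB1, was the lowest of them at 4.86. Thus LDB1 stood above every LHX and ISL gene. Of the EYA and DACH partners of SIX-family proteins, 1 of 6 was above the bound, EYA3 with 8.54, 8.51 and 8.56. EYA2 and DACH2 averaged 5.37 and 5.08 and DACH1 was the lowest at 4.07, whereas all 5 SIX-family genes were above the bound. Of 5 relatives and partners of TALE factors 4 were, led by TGIF1 at 10.49 ± 0.06 (SD, n = 3), which is on the CHD8 list, TGIF2 at 8.71 and PKNOX1 at 7.44, with PKNOX2 the lowest at 5.66. Of the Groucho corepressors, which bind many homeodomain proteins, 4 of 5 were above it, with TLE5 at 9.76, TLE2 at 8.51 and TLE1 at 7.26, and TLE4 was at 4.27. PAXIP1, a partner of PAX proteins, averaged 9.56.

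Homeobox genes of other families gave a similar picture. Of 64 measured, 34 were above the bound, near the share of all genes, 56.4%. Their median was 6.48, with a range between 3.21 (POU1F1, the pituitary factor) and 10.56. ADNP, a zinc finger and homeobox protein, was the highest, followed by GBX2 at 9.36 ± 0.26 and BARX2 at 9.06 ± 0.06 (SD, n = 3). ADNP alone of these 3 is on the CHD8 list, and it stood above all 65 members, as did GBX2 on average.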

How the data were processed

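Total RNA from 3 separate C33A cultures was hybridized to 1 Affymetrix Human Gene 1.0 ST array each. The authors extracted the raw data with the scanner software, normalized them by Robust Multichip Average (RMA) and processed them with oneChannelGUI. Each deposited value is the log2 intensity of 1 probe set on 1 array. RMA corrects background, gives all arrays a common distribution and so removes differences in total signal. Versions of these programs: not given in the sources used here.

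The arrays hold 33297 probe sets, and only the 19460 that name a single gene were kept (1754 name several, and for 12083 the annotation lists none). Symbols were updated through RefSeq (GRCh38.p14), and probe sets were averaged per gene. Of the probe sets that could hold members, 4 with several symbols were left out, so PBX2 has no value here, and some other genes of these families are not reported here. Promoters are the 250 bases before each RefSeq start. The bound was the 95th percentile of the silent families. No test was run, since there is 1 group, and each SD is over the 3 cultures unless 2 arrays are stated. The members and all lists were chosen with earlier results of these data known. Of the partner and other homeobox lists the 3 highest genes and the lowest are named, and the cell type markers named were chosen after their values were seen. Alternatives left out each array, changed the bound, the genes, the probe set rule, the centring or the symbols. Calculations used Python 3.11.15, pandas 2.3.3 and NumPy 2.4.6 and were checked on simulated data.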

Additional observations from a re-analysis of the deposited data

How the results depend on the processing

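No paired analysis was possible because all arrays belong to 1 group. At the 99th percentile of the silent families, members above the bound numbered 9 in place of 38, other homeobox genes 6 in place of 34 and partner genes 10 in place of 15. With olfactory receptors alone, 53 other homeobox genes were above it. The median SD of the members was 0.0603 to 0.0789 when 1 array was left out, lowest without array 1, in place of 0.0917. With olfactory receptors alone 56 members were above it, and under every other setting 38 or 39. The highest of 3 equal groups of genes held 6 members, or 8 without array 2. The level of a single member moved by at most 0.19, and since each member has 1 probe set and 3 arrays, moves of under 1 SD when an array is left out or the probe set rule changes follow from the construction and show no stability. The files hold no signal over background, so weak transcripts cannot be separated from background near the bound.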
